A study of Homo sapiens with 4 samples.

Results

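The keratins described here are 10 genes of epithelial intermediate filaments chosen by symbol: KRT20, KRT23, KRT19, KRT18, KRT8, KRT7, KRT80, KRT13, KRT15 and KRT17. Of these, 9 were read, by 13 probe sets annotated to 1 of the symbols alone, out of 19775 genes read by 41097 such probe sets. KRT17 had no probe set listed for it alone and was not analysed here. RNA of 4 modified colorectal cancer cultures was hybridised to 1 Affymetrix array each. The arrays were HCT116-Vec and HCT116-CDX1, made from the colorectal carcinoma line HCT116, and LS174T-siVec and LS174T-siCDX1, made from the mucinous colon adenocarcinoma line LS174T. By their titles, both lines carry a vector control, with CDX1 added in HCT116 and targeted in LS174T. The labels gave neither the constructs nor whether a culture was a clone or a pool. The series is named for the question of whether the homeobox factor CDX1 controls cytokeratin 20, the product of KRT20.

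Keratins are the intermediate filament proteins of epithelia. A filament is built from pairs of a type I and a type II keratin, so that each cell makes members of both types, and it is anchored to desmosomes by linker proteins. Simple epithelia such as the gut lining rest on KRT8 (type II) paired with KRT18 and KRT19 (type I), and KRT20 (type I) is added in the differentiated cells of the intestinal surface and in most colorectal cancers. KRT7 and KRT80 are type II, and KRT23, KRT13 and KRT15 are type I.

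The KRT20 promoter sequence is shown as background, since CDX factors bind AT-rich DNA with the core ATAAA. The arrays measured neither binding nor promoter activity. The 250 bases before the KRT20 start in RefSeq (GRCh38.p14, chr17:40885243-40885492, minus strand) are shown with those of KRT8 (GRCh38.p14, chr12:52926470-52926719, minus strand) for comparison. These were the members with an entry in the promoter table, 2 of 10. Capitals mark ATAAA or its reverse complement TTTAT.
KRT20: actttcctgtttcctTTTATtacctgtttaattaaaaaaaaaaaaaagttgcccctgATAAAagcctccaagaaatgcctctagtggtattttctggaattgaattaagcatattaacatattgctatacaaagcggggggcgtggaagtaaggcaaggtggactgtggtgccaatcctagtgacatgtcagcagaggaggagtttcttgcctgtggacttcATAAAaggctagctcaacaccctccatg
KRT8: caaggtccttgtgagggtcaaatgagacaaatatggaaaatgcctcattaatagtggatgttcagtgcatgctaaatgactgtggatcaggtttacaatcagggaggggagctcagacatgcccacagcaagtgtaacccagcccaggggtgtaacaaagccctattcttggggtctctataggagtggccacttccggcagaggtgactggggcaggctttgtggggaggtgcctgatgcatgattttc
The KRT20 window held 3 matches, which lay 235 to 231, 193 to 189 and 28 to 24 bases before the start, and the KRT8 window held 0. Over 35116 promoter windows of the same length, 32.7% held at least 1 match on either strand, and 5.20% held at least 3. The longer TATAAA, which contains ATAAA, was found in 10.7% of windows and in 0 places of the KRT20 window. A match is a string of letters and not a measured binding site.

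Values are log2 expression from RMA, an array summary method. A gene with several probe sets was read from the set that was brightest on average. It counted as measured in a comparison where the brighter array reached 6, and "rose" and "fell" are used of measured genes that differed by at least 1 on this scale, which is 2-fold. With 1 array per group no difference between 2 arrays has a replicate error or a test, and precision is limited by how few arrays there are. The medians of the arrays ran from 7.04 to 7.06, and 30 control probe sets for bacterial and phage transcripts differed by at most 0.36 in any comparison. CDX1 stood at 8.21 in HCT116-Vec and 8.24 in HCT116-CDX1, and at 10.46 in LS174T-siVec and 9.06 in LS174T-siCDX1. It was thus lower by 1.40 in LS174T-siCDX1, while its 1 probe set differed by 0.02 in HCT116, so the directions for that pair rest on the title alone and its second array is written as the array labelled HCT116-CDX1. All 8 markers of colorectal epithelium were at 6 or more in each array. So were 9 of 10 squamous, 7 of 8 fibroblast, 2 of 3 leukocyte and 2 of 3 endothelial markers in each array. The count at 6 therefore does not tell cell types apart. The mean level of 10 squamous markers stayed between 7.28 and 7.36 over the arrays, that of 8 fibroblast markers between 7.25 and 7.40, that of 3 leukocyte markers between 6.68 and 6.92 and that of 3 endothelial markers between 6.57 and 6.68. In cultures measured in bulk, fewer cells with a transcript and less transcript per cell cannot be told apart.

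A level just above 6 was not taken as proof of expression. The hair keratins, which build the hair shaft, read between 4.46 and 7.77 over 11 genes and 4 arrays, and 7 of them were at 6 or more in each array. These genes were looked at after their values were seen. Their differences within a pair were at most 0.34.

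KRT20 was high in the arrays with more CDX1 by title and low in their partners. Its level was 6.36 in HCT116-Vec, 9.38 in the array labelled HCT116-CDX1, 8.15 in LS174T-siVec and 5.45 in LS174T-siCDX1. The order of the 4 readings therefore put both arrays with less CDX1 by title below both with more by title, across lines as well as within them. The CDX1 readings did not have this order across lines, at 9.06 in LS174T-siCDX1 and 8.24 in the array labelled HCT116-CDX1. In HCT116 the difference was 3.03 or 8.14-fold, and 6 of 16914 measured genes had a larger rise. The HCT116-Vec reading of 6.36 lay within the range of the hair keratins, so the fold is uncertain. In LS174T the difference was -2.70 and the fold was 6.51 as read and at least 4.43 with the dim reading set to 6; 22 of 16896 measured genes had a larger fall. KRT20 thus differed in opposite directions in the modified arrays of the 2 lines. The rise exceeded the fall by 0.32 as read and by 0.88 with the dim reading set to 6. The LS174T-siVec level exceeded that of HCT116-Vec by 1.79, or 3.46-fold. LS174T-siCDX1 read below HCT116-Vec, and the array labelled HCT116-CDX1 read above LS174T-siVec.

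**Figure D1:**
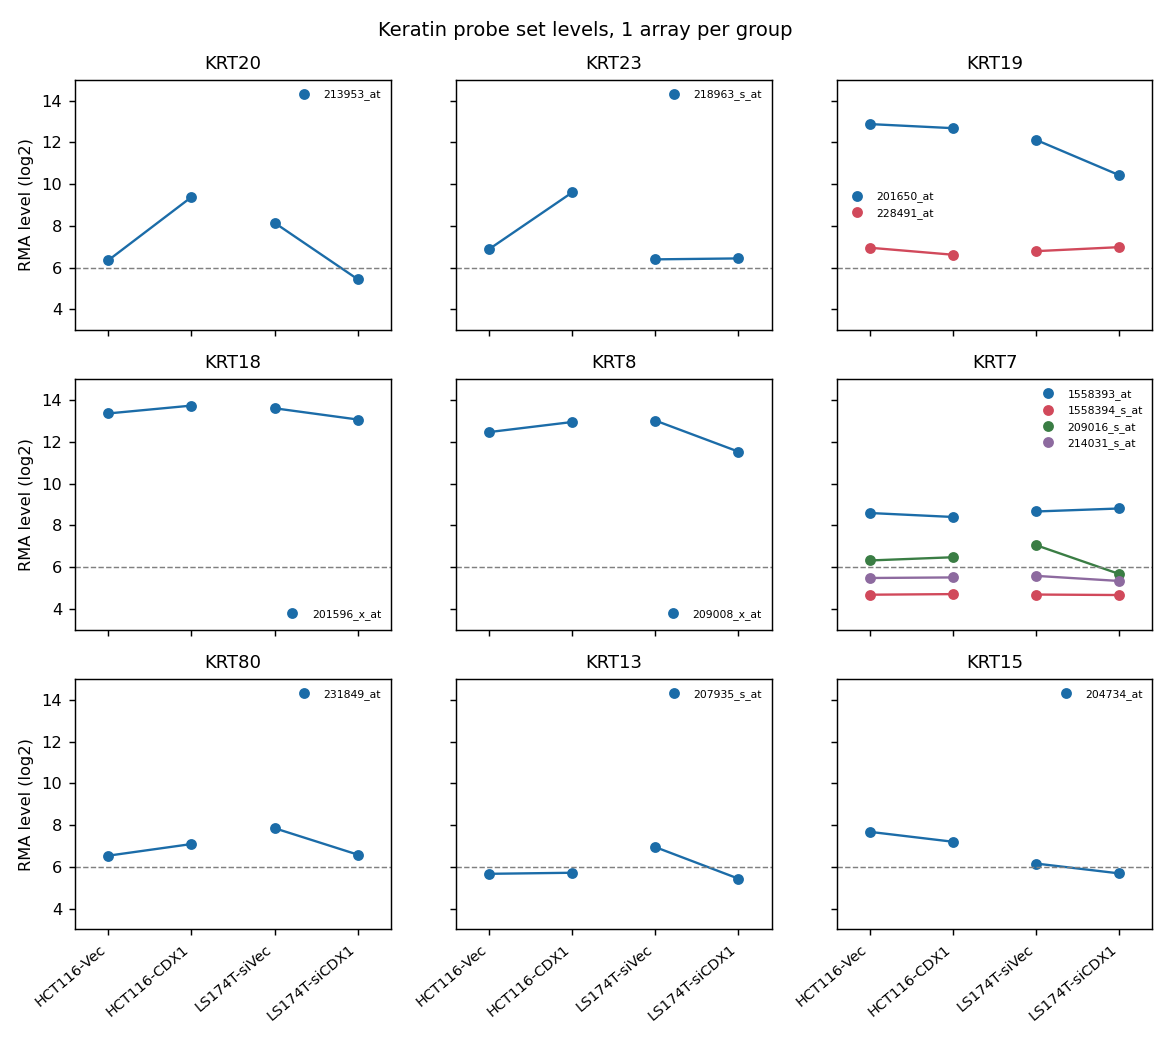
Level of each keratin probe set (vertical axis, RMA log2) in the 4 arrays (horizontal axis), with 1 point per array, lines joining the arrays of a cell line and a dashed line at 6. KRT20 runs from 6.36 to 9.38 in HCT116 and from 8.15 to 5.45 in LS174T, KRT23 changes in HCT116 alone among the pairs, and KRT19, KRT8, KRT80 and KRT13 drop in LS174T-siCDX1.

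KRT23, a type I keratin encoded beside KRT20, followed KRT20 in HCT116 and not in LS174T. Its level was 6.89 in HCT116-Vec, 9.60 in the array labelled HCT116-CDX1, 6.40 in LS174T-siVec and 6.44 in LS174T-siCDX1. A single array was high, and the other 3 spanned 6.40 to 6.89, within the range of the hair keratins. The rise in HCT116 was 2.72, or 6.58-fold, and 9 of 16914 genes had a larger one. In LS174T the difference was 0.05. A level of 6.40 to 6.44 leaves little room to see a fall above the floor of 6.

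KRT8 and KRT18, a filament pair of simple epithelium, were lower in LS174T-siCDX1, KRT8 by over 2-fold and KRT18 by less. Both differed by less than 2-fold in HCT116. KRT8 stood at 12.47 in HCT116-Vec, 12.96 in the array labelled HCT116-CDX1, 13.02 in LS174T-siVec and 11.54 in LS174T-siCDX1. The lowest reading was that of LS174T-siCDX1, which fell by 1.49 or 2.81-fold, and the HCT116 difference was 0.48. Its filament partner KRT18 stood at 13.37, 13.74, 13.61 and 13.07 in the same order of arrays. KRT18 had the same order of levels within each pair, with differences of 0.38 and -0.54, and did not reach 2-fold in either. The top KRT18 reading lay 0.88 below the highest reading of any probe set on any array, and compression at the top of the scale was not tested. The probe sets of KRT8 and KRT18 carry names for sets that may match related transcripts, and both genes have near-identical copies in the genome, so their values are uncertain as readings of 1 gene.

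KRT19, the smallest keratin and the second type I partner in simple epithelia, fell in LS174T-siCDX1 by its brighter probe set. That set read 12.88 in HCT116-Vec, 12.68 in the array labelled HCT116-CDX1, 12.12 in LS174T-siVec and 10.43 in LS174T-siCDX1. The first 3 arrays spanned 12.12 to 12.88 and the last was lower, by 1.69 or 3.22-fold against LS174T-siVec. In HCT116 the difference was -0.20, opposite in sign to that of KRT20. The other KRT19 probe set read 6.95, 6.62, 6.79 and 6.98 and differed by 0.19 within LS174T, so the 2 sets disagreed and their mean difference there was -0.75.

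KRT7, the type II keratin of many ducts and glands that is usually scarce in colorectal epithelium, was read by 4 probe sets that did not move together. The brightest read 8.60 in HCT116-Vec, 8.41 in the array labelled HCT116-CDX1, 8.67 in LS174T-siVec and 8.81 in LS174T-siCDX1, a difference of 0.14 in LS174T. Another read 6.32, 6.48, 7.06 and 5.68, and was lower in LS174T-siCDX1 by 1.38 as read and by 1.06 with the dim reading set to 6. The other 2 were under 6 in each array, with readings of 4.67 to 4.71 and of 5.34 to 5.59. By the reading rule KRT7 counts as differing by less than 2-fold, and the second of these sets alone would have made it fall.

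KRT80, a type II keratin of filaments near cell junctions, had the KRT20 order within both lines at a smaller size. It read 6.53 in HCT116-Vec, 7.09 in the array labelled HCT116-CDX1, 7.85 in LS174T-siVec and 6.58 in LS174T-siCDX1. LS174T-siVec was the highest array and the other 3 spanned 6.53 to 7.09, within the range of the hair keratins. It fell by 1.27, or 2.40-fold, in LS174T-siCDX1, and differed by 0.56 in HCT116.

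KRT13 and KRT15 are type I keratins best known from stratified epithelium, and each had at least 1 reading under 6. KRT13 read 5.66 and 5.72 in the HCT116 arrays, where it was not measured, and 6.94 and 5.43 in LS174T-siVec and LS174T-siCDX1. LS174T-siVec was the single array above 6, and the fall of 1.51 became 0.94 with the dim reading set to 6, under 2-fold. KRT15 read 7.67 and 7.20 in HCT116-Vec and the array labelled HCT116-CDX1, and 6.16 and 5.68 in LS174T-siVec and LS174T-siCDX1. Both HCT116 arrays lay above both LS174T arrays. The modified array read lower in each pair, by 0.47 as read, under 2-fold, and the LS174T difference was -0.16 with the dim reading set to 6.

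**Figure D2:**
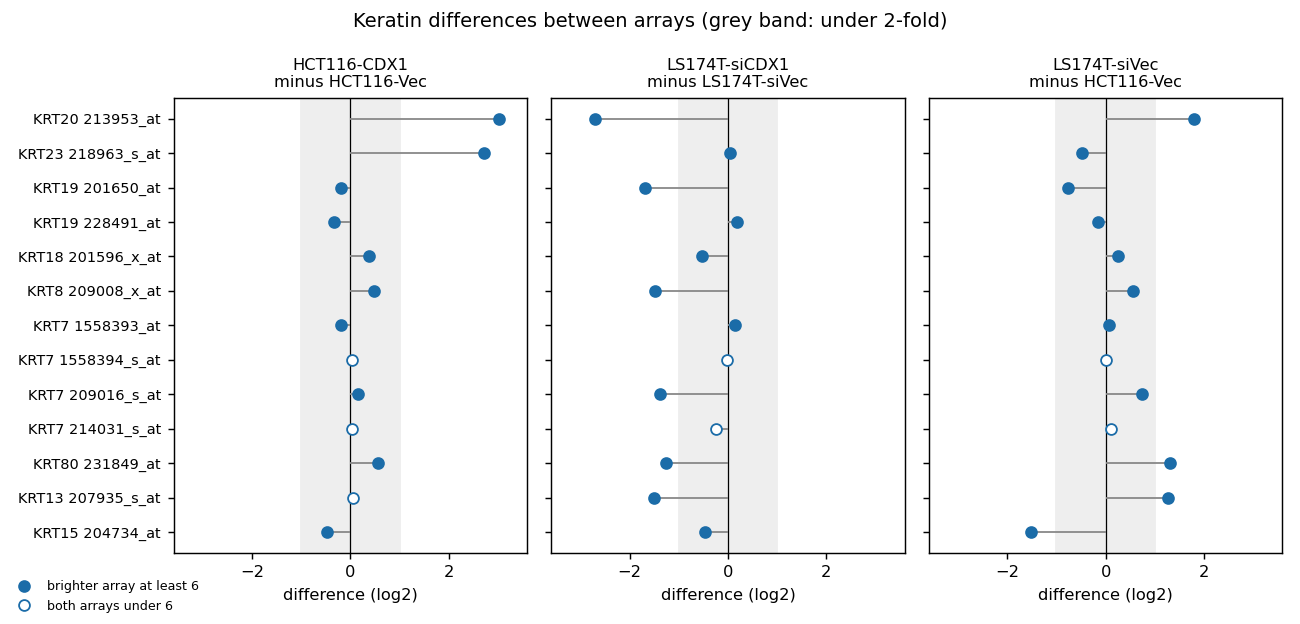
Difference of each of the 13 keratin probe sets (horizontal axis, log2) in the HCT116 pair, the LS174T pair and between the vector arrays, with a grey band for under 2-fold and open points where both arrays were under 6. KRT20 and KRT23 stand alone at 3.03 and 2.72 on the left, and 6 probe sets lie left of the band in the middle panel.

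Counted together, 2 of 8 measured members rose and 0 fell in HCT116, where 0.916% of all measured genes rose and 0.970% fell. The 8 members had a median difference of 0.43, with 5 above 0, against a median of -0.01 over all genes. In LS174T 5 of 9 measured members fell (KRT20, KRT19, KRT13, KRT8 and KRT80) and 0 rose, where 1.25% of all measured genes fell and 0.598% rose. Their median was -1.27, with 7 below 0, against -0.01 over all genes. The members were chosen with earlier results of these arrays known, so the counts describe these genes and are no independent evidence. Some markers of colorectal epithelium moved too. In LS174T-siCDX1 2 of 8 fell, LGALS4, a galectin of the gut lining, by 1.64 and GPA33, an intestinal surface antigen, by 1.29. The other 6 differed by less than 2-fold, and the median over 8 was -0.63. In HCT116 1 of 8 rose, CDH17, the liver-intestine cadherin, by 1.31, and the median was 0.19. CDH17 read 6.19 and 7.49 there, within the range of the hair keratins. The mean level of those 8 markers was 8.36, 8.76, 10.98 and 10.30 in HCT116-Vec, the array labelled HCT116-CDX1, LS174T-siVec and LS174T-siCDX1, and the part of that shift in the keratin values was not tested.

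**Figure D3:**
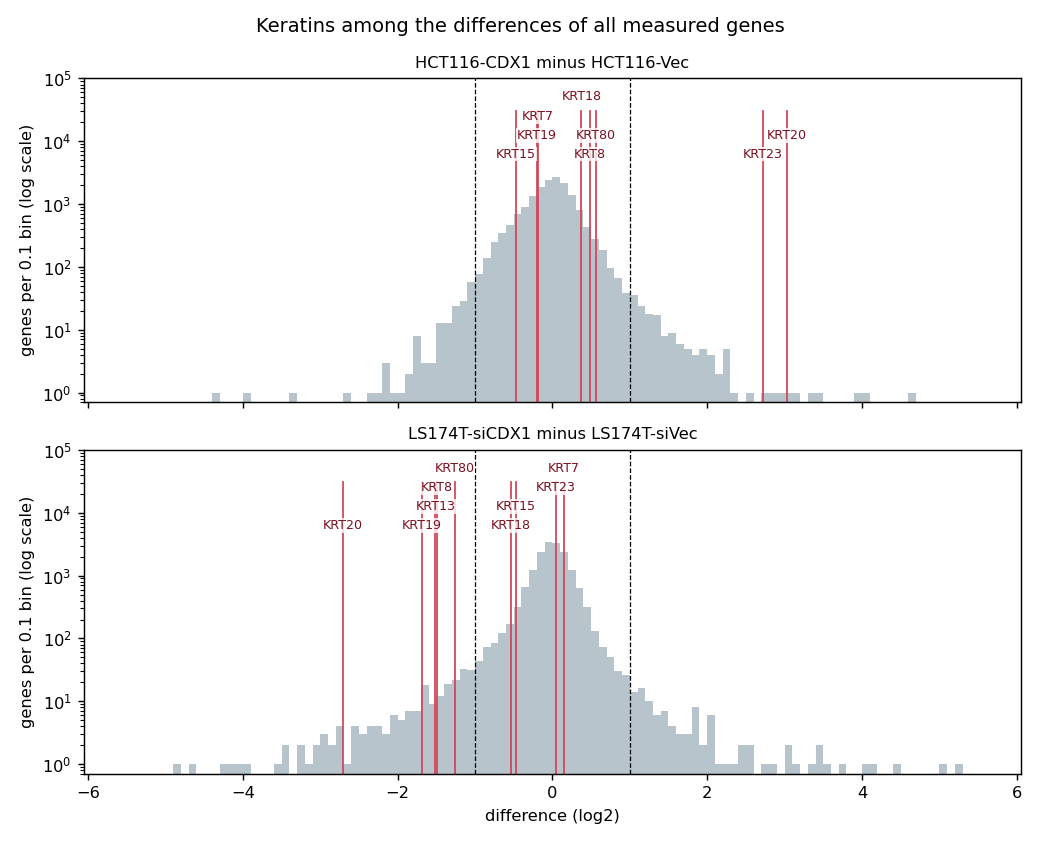
Number of measured genes per bin of 0.1 (vertical axis, log scale) by difference (horizontal axis, log2) in the HCT116 and LS174T pairs, with red lines at the keratins and dashed lines at 2-fold. KRT20 at 3.03 and KRT23 at 2.72 lie in the sparse right tail of the HCT116 pair, and the 5 keratins that fell lie left of -1 in the LS174T pair, from -1.27 to -2.70.

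Over all genes the vector arrays differed more often than the arrays of either pair. LS174T-siVec was at least 2-fold above HCT116-Vec in KRT20 by 1.79, KRT80 by 1.32 and KRT13 by 1.28, and below it in KRT15 by 1.52. That is 3 of 9 members higher and 1 lower, where 6.03% of all measured genes were higher and 7.33% lower. KRT13 differed by 0.94 with dim readings set to 6. KRT8 at 0.55, KRT18 at 0.25 and KRT7 at 0.07 were nearer 0, and KRT23 at -0.49 and KRT19 at -0.76 were lower without reaching 2-fold. This comparison shares LS174T-siVec with the LS174T pair and HCT116-Vec with the HCT116 pair, so the same readings enter both. The lines also differ in CDX1, by 2.24, and in CDX2, by 1.97, and in much else.

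The 4 arrays were also fitted together with limma, in a model of the CDX1 title (higher against lower) and the cell line, which leaves a single residual degree of freedom. KRT20 had the smallest unadjusted p of 17280 genes, 2.91e-05, with a difference of 2.86 (SE 0.16), and its adjusted p was 0.50. The fit took the KRT20 reading of 5.45 in LS174T-siCDX1, under 6, as deposited. The KRT20 effects of the 2 lines differed by 0.32 as read and by 0.88 with that reading set to 6. The fit was not run with dim readings set to 6, so this rank and SE rest on a reading under the floor. KRT80 at 0.91 (SE 0.22), KRT8 at 0.99 (SE 0.28) and KRT18 at 0.46 (SE 0.15) had unadjusted limma p of 0.012, 0.020 and 0.034, each higher in 2 of 2 lines, and each had an adjusted p of 0.999. KRT23 at 1.34 (SE 0.67), KRT13 at 0.78 (SE 0.38) and KRT19 at 0.75 (SE 0.47) had unadjusted limma p of 0.11, 0.099 and 0.18. The effects of the 2 lines differed by 2.76 for KRT23 and -1.89 for KRT19. KRT13 was not measured in HCT116, where its difference of 0.05 between readings under 6 entered the fit as read. KRT7 was at -0.17 and KRT15 at -0.0011. By limma 0 of 9 members and 0% of all genes passed an adjusted p of 0.05, while 4 of 9 members had an unadjusted p under 0.05, as did 3.0% of all genes. The estimate lay above 0 for 7 of 9 members, KRT13 among them, and for 48.2% of all genes.

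Other keratin genes did not reach 2-fold within either pair. Over all measured genes 0.916% rose and 0.970% fell in HCT116, and 0.598% rose and 1.25% fell in LS174T. Counts of 0 in lists this short therefore do not set these keratins apart from other genes. Of 22 other type I keratins 18 were read; 15 were measured in HCT116 and 14 in LS174T, and 0 rose or fell in either. Their differences ran from -0.46 to 0.62 and from -0.31 to 0.39. Of 23 other type II keratins 17 were read, 15 and 16 were measured, and again 0 rose or fell, with differences from -0.31 to 0.22 and from -0.15 to 0.23. Between the vector arrays KRT222, a keratin-like gene, was lower in LS174T by 1.89 as read and by 0.69, under 2-fold, with the dim reading set to 6. The remaining 14 type I and 16 type II genes measured there differed by less than 2-fold. KRT222 is 6.67% of the 15 type I genes measured there, where 7.33% of all measured genes were lower.

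KRT20 and KRT23 are direct neighbours in the type I keratin cluster of chromosome 17 in RefSeq. Of the 20 genes nearest to KRT20 in chromosome order, 10 on either side, 11 were read and 8 were measured in each pair. In HCT116 KRT23 rose and the other 7 differed by less than 2-fold, where 0.916% of all measured genes rose and 0.970% fell. KRT12, the corneal keratin on the other side of KRT20, read 6.34 and 6.53, and KRT10, an epidermal keratin, read 11.45 and 10.99. In LS174T 0 of the 8 rose or fell, with differences from -0.31 to 0.33, beside the fall of KRT20. There 0.598% of all measured genes rose and 1.25% fell.

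**Figure D4:**
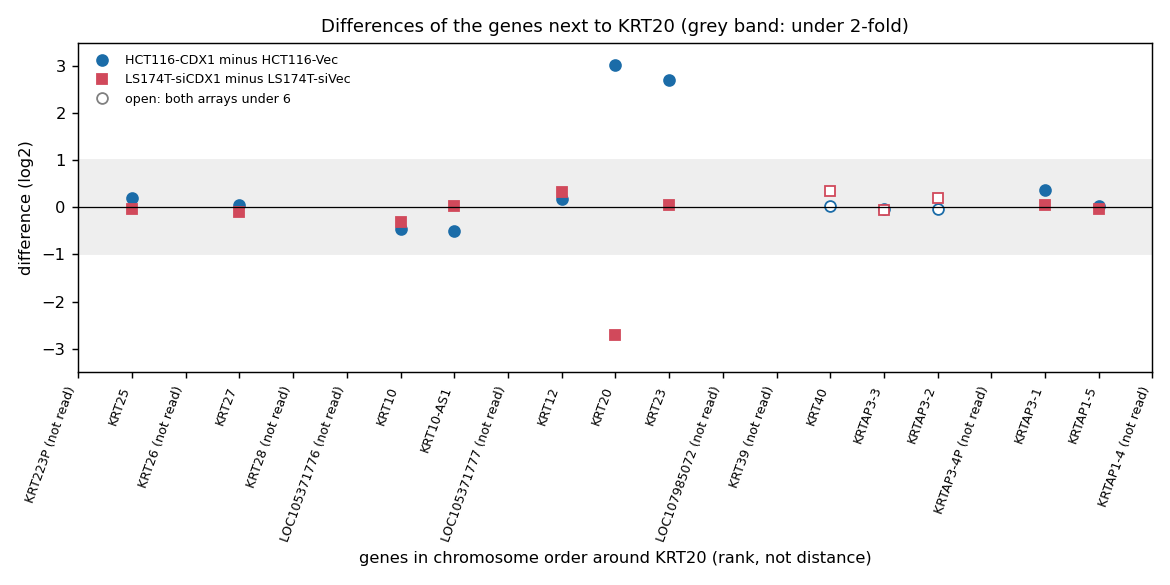
Differences (vertical axis, log2) in the HCT116 pair (circles) and the LS174T pair (squares) for KRT20 and the genes around it in chromosome order (horizontal axis, rank only), with open symbols where both arrays were under 6 and a grey band for under 2-fold. KRT20 and KRT23 stand at 3.03 and 2.72 in HCT116, and KRT20 alone leaves the band in LS174T, at -2.70.

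Transcripts of the proteins that tie keratin filaments to junctions were read as a list. Of 18 linker and binding genes measured in HCT116, 2 rose: JUP, the plakoglobin of desmosomes and adherens junctions, from 10.66 to 12.02, and DSC2, a desmosomal cadherin, from 10.03 to 11.05. That is 11.1% of the list, where 0.916% of all measured genes rose. In LS174T 1 of 17 fell, DSC2 from 9.99 to 7.80, which is 5.88% of the list where 1.25% of all genes fell. There 15 of 17 lay below 0 with a median of -0.26, as did 51.2% of all genes with a median of -0.01. DSC2 therefore changed with the CDX1 titles in both lines, as KRT20 did. Of its 4 probe sets, 2 were at least 2-fold higher in HCT116 and 3 at least 2-fold lower in LS174T, and each of them had the same sign. The plakins DSP, PLEC, PPL and EVPL, which bind keratin filaments directly, differed by less than 2-fold in both pairs, from -0.06 to 0.46 in HCT116 and from -0.31 to -0.04 in LS174T. Between the vector arrays PKP2, a desmosomal plakophilin, was higher in LS174T by 1.58, and DSC3, a desmosomal cadherin of stratified epithelium, by 2.91 as read and at least 1.94, DST by 2.01 and PLEC by 1.03 were lower. DST was read by 10 probe sets, of which 4 were at least 2-fold lower there, and the second PLEC set was at -0.78. Of the list, 5.56% were higher and 16.7% lower between the vector arrays, where 6.03% of all measured genes were higher and 7.33% lower.

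Other intermediate filament genes did not reach 2-fold in either pair. Few genes did: 0.916% of all measured genes rose and 0.970% fell in HCT116, and 0.598% rose and 1.25% fell in LS174T. Of 16 read, 15 were measured in HCT116, from -0.75 to 0.40, and 14 in LS174T, from -0.34 to 0.41. VIM, the filament protein of mesenchymal cells, read 8.06, 7.36, 7.32 and 7.07 in the 4 arrays in the order above. Between the vector arrays SYNM, a filament protein of muscle, was lower in LS174T by 1.0 and BFSP1, a lens filament protein, by 1.08. That is 15.4% of the 13 measured there, where 7.33% of all measured genes were lower. Among 9 epithelial transcription factors read, KLF5, a factor of crypt cells, rose by 2.05 and EHF, an epithelial ETS factor, fell by 1.86 in HCT116 (at least 2-fold in 5 of its 6 probe sets), and CDX1 fell in LS174T. Between the vector arrays CDX1, CDX2, KLF5 by 1.13 and GATA6, an endodermal factor, by 2.26 were higher in LS174T, and 0 were lower. That is 44.4% of the 9 factors higher, where 6.03% of all measured genes were higher and 7.33% lower. The second GATA6 set was at 0.61, under 2-fold.

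Genes with the pattern most like that of KRT20 were ranked by the Euclidean distance between levels centred over the 4 arrays, a description on 4 points, over 17279 genes. The nearest was CCL20, a mucosal chemokine, at a distance of 1.12, with readings of 5.45, 8.86, 7.20 and 5.89. ANTXR2, an anthrax toxin receptor, at 1.26, CLIC3, a chloride intracellular channel protein, at 1.26, DPP4, a brush-border peptidase, at 1.34 and MSLN, the surface antigen mesothelin, at 1.36 followed. These 5 were picked for a pattern like that of KRT20, so their directions follow from the choice and are no separate result. Each was higher by title with CDX1 in both lines, with HCT116 differences of 1.41 to 3.41 and LS174T differences of -1.03 to -1.89 as read. With dim readings set to 6 the CCL20 differences were 2.86 and -1.20, and the LS174T difference of MSLN was -1.46. Among the members KRT8 was the most like KRT20, at place 36 and a distance of 2.09, followed by KRT23 at place 37 and 2.10. KRT7, at place 13652, was the least like it of the 9 members. The genes most like KRT23 were CLMP, an adhesion molecule of tight junctions, at 0.44, MPP7 at 0.65, LNCAROD at 0.69, SYTL2 at 0.72 and SUN3 at 0.73. They were picked in the same way, so a rise in HCT116 follows from the choice. They rose by 1.81 to 3.31 in HCT116 as read, and CLMP, LNCAROD and SUN3 by 3.27, 2.90 and 1.15 with the dim reading set to 6. These 3 were not measured in LS174T, where MPP7 differed by 0.04 and SYTL2 by -0.89, under 2-fold.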

How the data were processed

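RNA was extracted with RNeasy and 2 µg was labelled as biotinylated cRNA with an Enzo kit, per the labels. The authors made the deposited log2 expression values with RMA, per the submitters' processing notes; the version and the group of arrays processed at once are not given in the sources used here. RMA makes the arrays' distributions alike and averages the probes of a set, so a change of all genes at once cannot be seen. Of 54675 probe sets, 41097 named 1 gene, 1801 several and 11777 none in the platform annotation, and symbols were updated through the gene identifier to RefSeq (GRCh38.p14). Differences were taken between deposited values. The fit used limma 3.58.1 in R 4.3.3 with Benjamini-Hochberg adjustment over the 17280 genes whose brightest array reached 6; other steps used Python 3.11.15, pandas 2.3.3, numpy 2.4.6 and statsmodels 0.14.6. The call rule and the fit were tested on simulated data.

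The members, lists, rules and tests were chosen with earlier results of these data known. Named were the 10 members, CDX1, in each list the 6 largest differences past 2-fold per comparison, the 20 neighbours of KRT20, and the 5 genes most like KRT20 and KRT23. Genes beyond this (hair keratins, plakins, VIM, keratin pseudogenes) were chosen after their values were seen. Alternatives were another floor, quantile normalization, a loess (span 0.3), the mean of probe sets, unshared probe sets and thresholds of 1.5-fold and 3-fold.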

Additional observations from a re-analysis of the deposited data

Results flagged for a closer look

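For 3 keratins the difference by CDX1 title had opposite signs in the 2 lines, though each was under 2-fold in at least 1 line. With 1 array per group the differences between lines were not tested. KRT23 was higher by 2.72 in the array labelled HCT116-CDX1 and lower by 0.05 in LS174T-siVec than in LS174T-siCDX1, so the effects differed by 2.76. KRT19 had effects of -0.20 in HCT116 and 1.69 in LS174T, which differ by -1.89. KRT15 had effects of -0.47 and 0.47, which differ by -0.95 as read. With the LS174T-siCDX1 reading of 5.68 set to 6, the LS174T effect was 0.16 and the gap -0.63.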

How the results depend on the processing

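KRT20 kept its direction and its side of 2-fold under each setting tried, at 3.01 to 3.04 in HCT116, -2.74 to -2.15 in LS174T and 1.76 to 1.79 between the vector arrays. It was read by 1 probe set, whose name marks no shared match. Another floor or choice of probe sets could therefore not change its differences. Only the normalizations and the setting of dim readings to 6 could. Without the probe sets whose names mark a possible match to several transcripts (_x_at and _s_at), 5 members were read; 1 rose in HCT116 and 3 fell in LS174T, against 2 and 5 in the main reading, since KRT23, KRT8 and KRT13 have no other set. At a 3-fold threshold 2 members fell in LS174T, 1 was higher and 0 were lower between the vector arrays. At 1.5-fold 2 were lower between the vector arrays, KRT19 with KRT15. Over all genes the 1.5-fold threshold gave 570 higher and 1033 lower in HCT116, 291 and 547 in LS174T and 2084 and 2433 between the vector arrays, and the 3-fold threshold 43 and 26, 44 and 85, and 487 and 627, against 155 and 164, 101 and 211, and 1028 and 1250 at 2-fold. The mean of both KRT19 sets was -0.75 in LS174T, and KRT13 left the call with a floor of 7 and with levels under 6 set to 6 (an alternative added after the data were seen). In limma 0 members passed in any of 6 settings, and the adjusted p of KRT20 ran from 0.0797 with an intensity trend to 0.9999 without the cell line term. Leaving out an array of the fit leaves no residual degree of freedom and was not run. The labels give no replicate numbers; the cell line term of the limma model pairs the arrays within each line.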

Other observations

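Probe sets for keratin pseudogenes, copies without a known protein, did not reach 2-fold in either pair. A KRT8P12 set read 7.67, 7.97, 7.99 and 7.66 in HCT116-Vec, the array labelled HCT116-CDX1, LS174T-siVec and LS174T-siCDX1, with differences of 0.30 and -0.33 that have the signs of KRT8 at a smaller size. The second KRT8P12 set differed by -0.03 and -0.14, and the KRT19P2 set was not measured, with readings of 5.66 to 5.84.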
